A study of Mus musculus with 6 samples.

Results

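The genes of glycolysis and of the lactate shuttle followed here are *Hk1*, *Hk2*, *Pfkfb3*, *Aldoc*, *Pkm*, *Ldha*, *Ldhb*, *Slc16a1*, *Slc16a3* and *Bsg*. They were listed by symbol for their known roles, with earlier results of these data known, and all 10 were found among the 55421 genes of the count table. The whole retina was profiled by stranded RNA-seq in 3 control mice (*Yap*fl/fl; YR612, YR613, YR615) and 3 *Yap* cKO mice (*Yap*fl/fl;*Rax-CreERT2*, with the codes YR711, YR713, YR714). Mice of both groups carried the floxed alleles, received 4-hydroxytamoxifen at postnatal days 10 and 14, and were 2 months old. The controls therefore carry no Cre. In this line the recombinase is expressed from *Rax* and acts in Müller glia and in the non-pigmented epithelium of the ciliary body, so that photoreceptors and inner neurons keep their *Yap* gene. Each library is a mixture of all retinal cells, and fewer cells of a type and less RNA per cell cannot be told apart in it. Nothing in the sources used here gives litter, sex or RNA extraction batch.

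None of the 10 genes met the criteria for differential expression in *Yap* cKO retinas, which were a change of 1.5-fold or more, an adjusted p no higher than 0.05 and a mean of at least 5 TPM (transcript abundance, scaled for gene length and to the same total in each retina) in 1 of the groups (called below). Of the 16575 genes tested, 0.796% met them. The log2 fold change (*Yap* cKO over control) was negative for 9 of the 10 genes and positive for *Pfkfb3*. The median over the 10 was -0.19 against 0.0017 over all genes tested, of which 49.7% were negative. With counts corrected for gene length, the medians were -0.19 for the 10 genes and -0.00069 over all genes tested. For 8 of the 10 genes the 95% interval of the fold change lay within 1.5-fold in both directions, as it did for 63.9% of all genes tested. *Hk2* and *Slc16a3* were the exceptions. The p-values measure the spread between the 3 animals of each group.

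Glycolysis splits glucose into pyruvate in the cytosol. Photoreceptors turn much of their glucose into lactate even when oxygen is present, a trait described by Warburg for tumours and retina alike. In the shuttle models of nervous tissue, lactate made in one cell leaves through a monocarboxylate transporter, enters a neighbour through another, and is turned back into pyruvate there. Müller glia, which span the retina, and the retinal pigment epithelium (RPE) behind it both take part in the proposed lactate exchange with photoreceptors.

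The promoters of these genes are shown first, since many glycolysis genes are known targets of hypoxia-inducible factors, which bind a short core of the letters ACGTG or GCGTG. RefSeq promoters on GRCm38.p6 were at hand for 9 of the 10 genes, 14 starts in all, and *Bsg* had none. In the 250 bases before a start, either core was found on either strand in 12 of the 14 promoters, and in 38.6% of the 32851 promoters of the genome searched in the same way. All 9 genes had a start with such a match. The E-box CACGTG, a palindrome which holds the core ACGTG once on each strand, was found in 3 of the 14 promoters and in 6.02% of all promoters. The letters GGAATG, the core bound by TEAD factors, through which YAP acts, were found in 1 of the 14 promoters, of *Aldoc*, and in 12.6% of all promoters. The GC box GGGCGG was found in 8 of the 14 promoters and in 32.7% of all promoters. A match is a description of letters, not a measured binding site. The 3 printed below belong to the gene with the largest fold change (*Hk2*), to the more abundant lactate dehydrogenase gene (*Ldha*, the first of its 2 RefSeq starts, which held the E-box), and to the gene with the smallest p (*Pkm*). They read 5′ to 3′ towards the start of transcription, with the hypoxia cores on either strand in capitals.
Hk2, chr6:82774455-82774704, minus strand: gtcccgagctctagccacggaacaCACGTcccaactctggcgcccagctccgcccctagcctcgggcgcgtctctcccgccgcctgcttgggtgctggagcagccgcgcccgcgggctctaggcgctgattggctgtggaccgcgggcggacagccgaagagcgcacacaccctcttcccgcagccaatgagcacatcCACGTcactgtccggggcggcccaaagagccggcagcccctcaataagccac
Ldha, chr7:46845554-46845803, plus strand: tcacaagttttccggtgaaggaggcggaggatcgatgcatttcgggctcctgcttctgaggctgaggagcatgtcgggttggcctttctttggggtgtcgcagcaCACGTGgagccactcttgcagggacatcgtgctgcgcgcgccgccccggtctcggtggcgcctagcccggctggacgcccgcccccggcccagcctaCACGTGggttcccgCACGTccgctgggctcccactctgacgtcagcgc
Pkm, chr9:59656326-59656575, plus strand: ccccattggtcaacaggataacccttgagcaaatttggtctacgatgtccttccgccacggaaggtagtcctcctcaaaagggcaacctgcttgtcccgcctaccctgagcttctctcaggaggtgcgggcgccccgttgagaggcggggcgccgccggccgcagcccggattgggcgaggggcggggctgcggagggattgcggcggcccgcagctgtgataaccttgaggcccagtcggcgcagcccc
*Hk2* held 2 cores, and *Ldha* 5 matches, of which 4 came from its 2 E-boxes. The bases that follow this RefSeq start of *Ldha* were not found in a transcript of the reference annotation, as they were for 12 of the 14 starts. The second *Ldha* start, which was found there, had no E-box and 1 core (GCGTG) before it. The *Pkm* sequence, of the first of its RefSeq starts, held neither core and is 1 of the 2 promoters without one. The second *Pkm* start, which like the first was found in the annotation, had 1 core (ACGTG) before it.

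*Yap1* itself was 9.48, 9.52 and 9.83 TPM in controls against 3.99, 3.76 and 3.94 TPM in *Yap* cKO retinas, in the order of the animals given above, which is kept below. The groups did not overlap, and *Yap1* fell by 1.36 on the log2 scale (SE 0.093, with adjusted p = 0.000282 by the quasi-likelihood test of edgeR with Benjamini-Hochberg adjustment). Between 24261799 and 28641877 fragments were assigned to genes in control retinas and between 25972334 and 35067068 in *Yap* cKO retinas, and each of the 10 genes had at least 1031 counts in every retina. Control YR613 and *Yap* cKO YR714 stood apart from their groups in how expression followed gene length. Spearman's rho of relative expression with exonic length was -0.413 and -0.405 in controls YR612 and YR615 but 0.172 in YR613, and 0.396 and 0.385 in *Yap* cKO YR711 and YR713 but -0.151 in YR714. The log2 fold change between the groups also rose with exonic length, with a rho of 0.391 over 16575 genes. Its median was -0.165 for the shortest genes (57 to 1360 bases) and 0.213 for the longest (9602 to 123179 bases). The cause of this trend was not tested. Results are therefore given also without YR613, without YR714, without both, and with counts corrected for length. These log2 fold changes are plotted for all 10 genes and printed for some of them.

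The levels of the 10 genes spanned 122-fold in control retinas, from the means of *Pfkfb3* to *Pkm*, on the TPM scale, which takes account of gene length. The order ran from *Pkm* (2742 ± 144 TPM, SD, n = 3) through *Bsg* (1832 ± 128), *Ldha* (1773 ± 113), *Aldoc* (911 ± 31.5), *Ldhb* (620 ± 27.0), *Hk1* (450 ± 33.6), *Slc16a1* (315 ± 16.1), *Hk2* (263 ± 83.1) and *Slc16a3* (48.8 ± 6.78) to *Pfkfb3* (22.5 ± 1.84). The ranges of neighbours overlapped only between *Bsg* and *Ldha* and between *Slc16a1* and *Hk2*. Together the 10 genes made up 8690 to 9365 TPM in controls against 7550 to 7956 TPM in *Yap* cKO retinas, or between 0.755% and 0.936% of all transcripts, with no overlap between the groups. *Pkm*, *Bsg* and *Ldha*, the 3 most abundant, carry most of this sum.

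**Figure D1:**
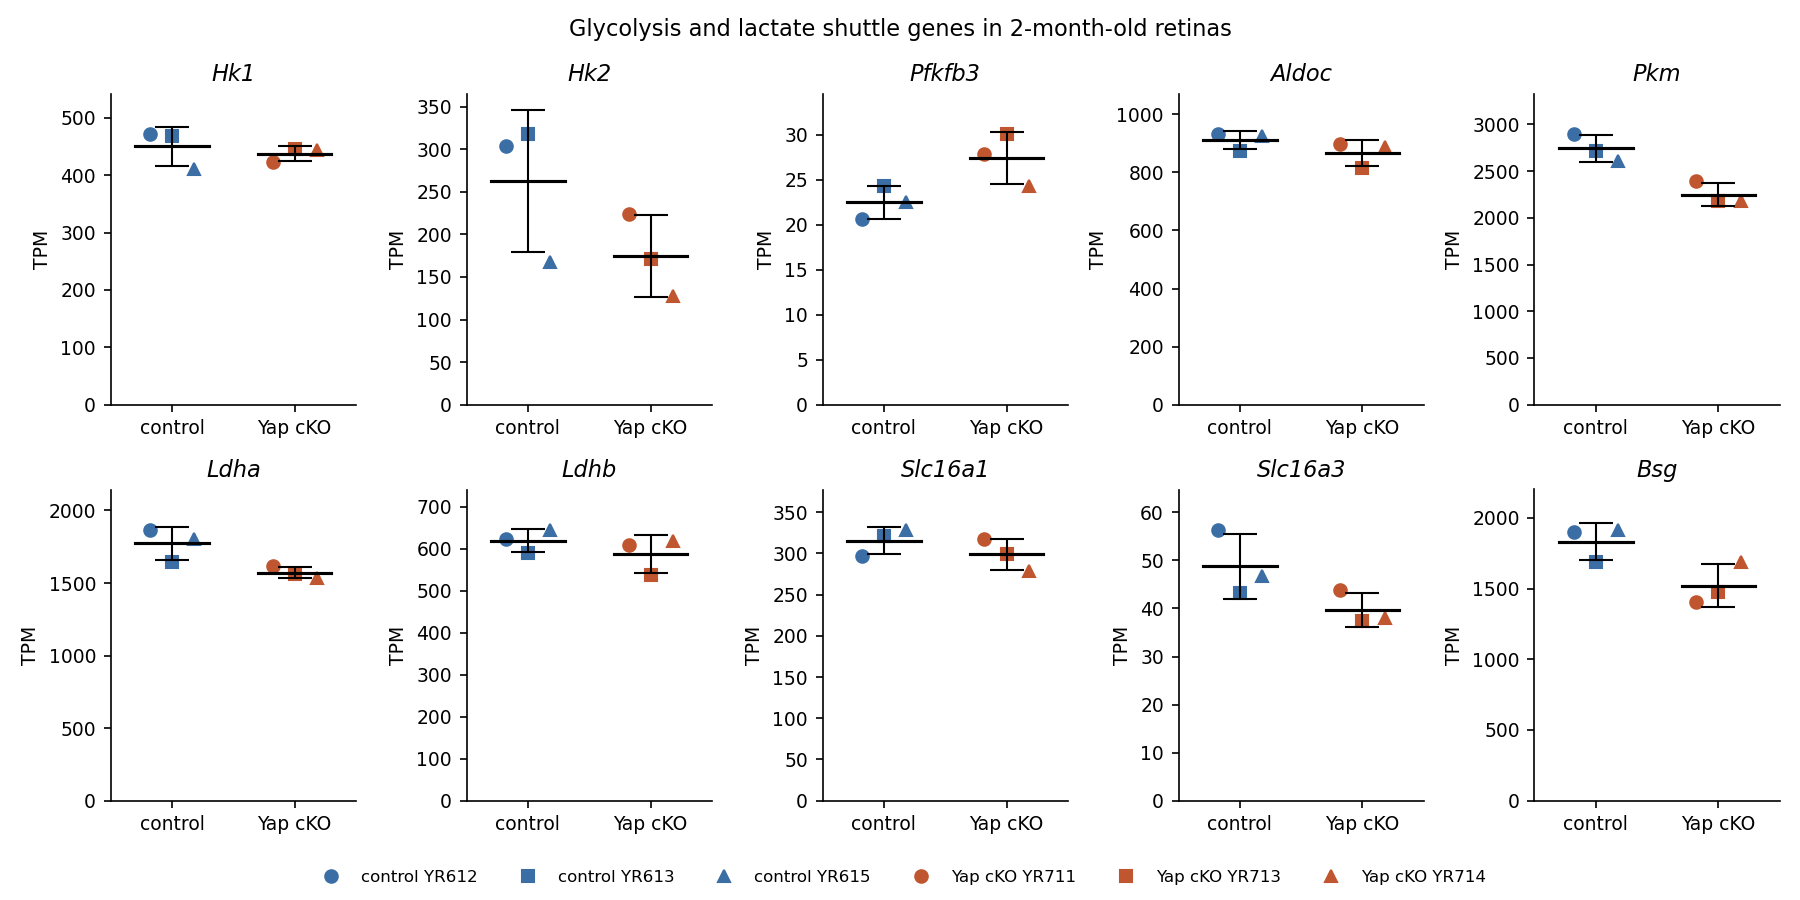
Expression of the 10 genes in each retina, in TPM on axes that start at 0, with control animals in blue and Yap cKO animals in orange. Horizontal lines are group means and error bars are 1 SD (n = 3 per group). The groups are apart for *Pkm* and *Ldha* and overlap for the other 8 genes.

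Hexokinases catalyse the first step, the phosphorylation of glucose, which traps it in the cell. *Hk1* (chromosome 10, 62268855 to 62379908, minus strand, GRCm38, as are the gene positions below) encodes the form found in most cells. It had 472, 468 and 412 TPM in controls against 423, 446 and 445 TPM in *Yap* cKO retinas. The *Yap* cKO values lay inside the control range, and the log2 fold change was -0.10 (SE 0.085, adjusted p = 0.509 by the quasi-likelihood test of edgeR).

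*Hk2* (chromosome 6, 82725025 to 82774454, minus strand) encodes the hexokinase that in the retina is known from photoreceptors, where it sustains aerobic glycolysis. It had 303, 318 and 167 TPM in controls against 224, 171 and 128 TPM in *Yap* cKO retinas. The groups overlapped through control YR615, which was lower than *Yap* cKO YR711 and YR713, and *Hk2* varied most within groups of the 10 genes, with a coefficient of variation of 31.6% in controls and 27.5% in *Yap* cKO. Its log2 fold change of -0.66 (SE 0.25) was the largest of the 10, the only one beyond 1.5-fold, and did not pass the test (adjusted p = 0.177). It lay between -0.90 and -0.49 when each retina was left out in turn, and was -0.35 without YR613 and YR714 together. Of hexokinase transcripts (*Hk1* plus *Hk2*), *Hk2* made up 39.2%, 40.5% and 28.9% in control retinas and 34.6%, 27.7% and 22.4% in *Yap* cKO retinas, which overlap. By the Pearson correlation of log2 CPM over the 6 retinas, the 3 genes most like *Hk2* among 16574 others were *Esrrb* (r = 0.986), which encodes an orphan nuclear receptor known from rods, *Sltm* (0.986) and *Fam3c* (0.985). *Esrrb* had 336, 321 and 222 TPM in controls against 262, 204 and 169 TPM in *Yap* cKO retinas, with the same order of animals within each group except that YR612 exceeded YR613. The like order follows from the selection of *Esrrb* by its correlation over these 6 retinas. It is no separate evidence of a link.

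*Pfkfb3* (chromosome 2, 11471433 to 11554077, minus strand) makes fructose 2,6-bisphosphate, the strongest activator of phosphofructokinase. It had 20.7, 24.4 and 22.5 TPM in controls against 27.8, 30.1 and 24.3 TPM in *Yap* cKO retinas. The groups overlapped narrowly, with *Yap* cKO YR714 at the level of control YR613. *Pfkfb3* was the single gene of the 10 with a positive log2 fold change, 0.23 (SE 0.089, adjusted p = 0.190 by the quasi-likelihood test of edgeR). Without YR613 and YR714 the log2 fold change was 0.33 and the adjusted p 0.0154, in a fit in which 26.3% of all genes passed the same limit of 0.05. With counts corrected for length the log2 fold change was 0.14 and the adjusted p 0.296, *Pfkfb3* having 7561 exonic bases.

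*Aldoc* (chromosome 11, 78322968 to 78327781, plus strand) encodes the aldolase typical of brain and glia, which cleaves fructose 1,6-bisphosphate into trioses. Its 932, 875 and 926 TPM in controls against 899, 815 and 887 TPM in *Yap* cKO retinas overlapped, with a log2 fold change of -0.13 (SE 0.081, adjusted p = 0.368).

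*Pkm* (chromosome 9, 59656368 to 59679375, plus strand) encodes pyruvate kinase, which yields pyruvate and ATP in the last step of glycolysis. It had 2897, 2719 and 2612 TPM in controls against 2397, 2175 and 2177 TPM in *Yap* cKO retinas. Every *Yap* cKO retina was lower than every control, and the fitted level was 1.27-fold lower. The log2 fold change was -0.35 (SE 0.084, unadjusted p = 0.00246 from the quasi-likelihood test of edgeR) with an adjusted p of 0.0810, which did not pass. It ranged from -0.39 to -0.28 when each retina was left out, with an adjusted p from 0.0404 (without YR613) to 0.341 (without YR713) that passed 0.05 in 1 of these 6 fits. Without both YR613 and YR714 it was -0.36 (adjusted p = 0.0366). Among the other fits to all 6 retinas, the adjusted p was 0.0845 with median-ratio size factors, 0.0614 with library size only, 0.0668 with upper-quartile factors, 0.0670 with limma-voom and 0.0739 with a filter of 1 CPM in 3 retinas. It was 0.0073 without a filter on low counts, 0.00946 with DESeq2, 0.0152 with edgeR's likelihood ratio test and 0.04999 with counts corrected for length. The limit of 0.05 was passed by 6.19%, 5.38%, 6.18% and 2.77% of all genes in these 4 fits and by 8.84% without YR613, and in none of them did the change of *Pkm* reach 1.5-fold. The counts are per gene and do not separate the PKM1 and PKM2 transcripts. Of the 5001 exonic bases of *Pkm*, 767 are shared with *Gm49759*, an annotated gene on the same strand, where fragments may be lost to either. The genes most like *Pkm* over the 6 retinas were *1600014C23Rik* (r = 0.997), *Ogdhl* (0.996), a subunit of an oxoglutarate dehydrogenase complex, and *Csf1* (0.995), the ligand of the receptor that microglia depend on. These too were picked as the highest of 16574 correlations over only 6 retinas, and a link to *Pkm* was not tested.

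The lactate dehydrogenases interconvert pyruvate and lactate. *Ldha* encodes the subunit that favours lactate formation and *Ldhb* the subunit of tissues that consume lactate. *Ldha* (chromosome 7, 46841475 to 46855627, plus strand) had 1865, 1647 and 1806 TPM in controls against 1614, 1564 and 1535 TPM in *Yap* cKO retinas. The groups did not overlap, although control YR613 and *Yap* cKO YR711 differed little, and the log2 fold change was -0.23 (SE 0.084, adjusted p = 0.165 by the quasi-likelihood test of edgeR). *Ldhb* (chromosome 6, 142490249 to 142507957, minus strand) had 624, 591 and 645 TPM in controls against 609, 537 and 618 TPM in *Yap* cKO retinas. These overlapped, with a log2 fold change of -0.13 (SE 0.088, adjusted p = 0.387), which was -0.01 with counts corrected for length, *Ldhb* being the shortest of the 10 at 1570 exonic bases. *Ldha* made up 74.9%, 73.6% and 73.7% of lactate dehydrogenase transcripts in control retinas and 72.6%, 74.4% and 71.3% in *Yap* cKO retinas. The balance of the pair thus overlapped between the groups, at 74.1% ± 0.753 and 72.8% ± 1.58 (SD, n = 3 each). *Pkm* and *Ldha* were the 2 of the 10 genes whose groups did not overlap, both lower in *Yap* cKO, where 9.04% of all genes tested were lower without overlap.

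Lactate crosses membranes through monocarboxylate transporters. *Slc16a1* encodes MCT1, a widespread carrier that works in both directions, and *Slc16a3* encodes MCT4, the low-affinity carrier of cells that export lactate. *Slc16a1* (chromosome 3, 104638668 to 104658462, plus strand) had 297, 321 and 328 TPM in controls against 317, 300 and 279 TPM in *Yap* cKO retinas. The groups overlapped, with a log2 fold change of -0.14 (SE 0.072, adjusted p = 0.2999 by the quasi-likelihood test of edgeR). *Slc16a3* (chromosome 11, 120948480 to 120960868, plus strand) had 56.3, 43.2 and 46.8 TPM in controls against 43.8, 37.4 and 37.9 TPM in *Yap* cKO retinas. YR711 exceeded control YR613, and the log2 fold change was -0.36 (SE 0.12, adjusted p = 0.148), between -0.46 and -0.22 with each retina left out. *Slc16a3* made up 13.4% ± 2.19 of the transcripts of the pair in control and 11.7% ± 0.557 in *Yap* cKO retinas (SD, n = 3 each), which overlap.

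*Bsg* (chromosome 10, 79704491 to 79711969, plus strand) encodes basigin, the chaperone that brings MCT1 and MCT4 to the cell surface and whose photoreceptor form binds rod-derived cone viability factor. It had 1898, 1684 and 1913 TPM in controls against 1402, 1474 and 1688 TPM in *Yap* cKO retinas. Only *Yap* cKO YR714 reached a control, YR613, the lowest. The log2 fold change was -0.33 (SE 0.10, adjusted p = 0.136). Without YR613 it was -0.40 (adjusted p = 0.0422), without YR714 it was -0.43 (adjusted p = 0.0439), and with counts corrected for length it was -0.21 (adjusted p = 0.132), all by the quasi-likelihood test of edgeR.

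The RPE uses basigin and MCT1 at its apical face, and the transcript levels of its markers were unequal among the retinas. The summed level of its 8 markers (*Rpe65*, *Lrat*, *Rdh5*, *Best1*, *Rgr*, *Ttr*, *Ezr* and *Slc16a8*) was 700 to 762 TPM in control retinas whereas *Yap* cKO retina YR711 had 219 TPM, YR713 397 TPM and YR714 746 TPM. All 8 had negative log2 fold changes, none was called, and none was at 0 in all retinas. *Slc16a8*, the MCT3 carrier of the basal RPE, is 1 of these markers and had 19.9, 17.4 and 18.9 TPM in controls against 3.44, 9.79 and 21.3 TPM in *Yap* cKO retinas. Within the *Yap* cKO group, *Bsg* followed the same order of animals as the RPE sum, whereas *Slc16a1* was lowest in YR714, in which the RPE sum was highest. Among controls *Bsg* did not follow it, as YR613 had the highest RPE sum (105% of the control mean) and the lowest *Bsg* (91.9%). Melanin genes summed to 74.3 to 81.4 TPM in controls against 17.5, 49.98 and 28.5 TPM in *Yap* cKO retinas, lower without overlap. All 6 of these genes were lower and 1 was called. YR714, with the highest RPE sum of the *Yap* cKO group, was thus lower than YR713 in its melanin sum. The 12 Müller glia markers summed to 7309 to 7536 TPM in controls against 6465 to 6923 TPM in *Yap* cKO retinas, without overlap, with 7 of them lower, 5 higher and none called. Of the ciliary body non-pigmented epithelium, the other site of Cre activity, 7 of 8 listed markers were found. Their sum was 272 to 284 TPM in controls against 299.8 to 368 TPM in *Yap* cKO retinas, higher without overlap. The markers did not rise as a group, since 6 were tested, with 3 lower, 3 higher and none called. Their median log2 fold change was -0.10. The 6 fibroblast markers summed to 15.02 to 17.1 TPM in controls against 9.08 to 13.4 TPM in *Yap* cKO retinas, lower without overlap. Only 4 of them were tested, with 3 lower, 1 higher and none called. Rod markers, which were 68429 to 72622 TPM in controls against 64869 to 69893 TPM in *Yap* cKO retinas, overlapped and mark these samples as retina. The part of these marker values in the levels of the 10 genes was not tested.

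**Figure D2:**
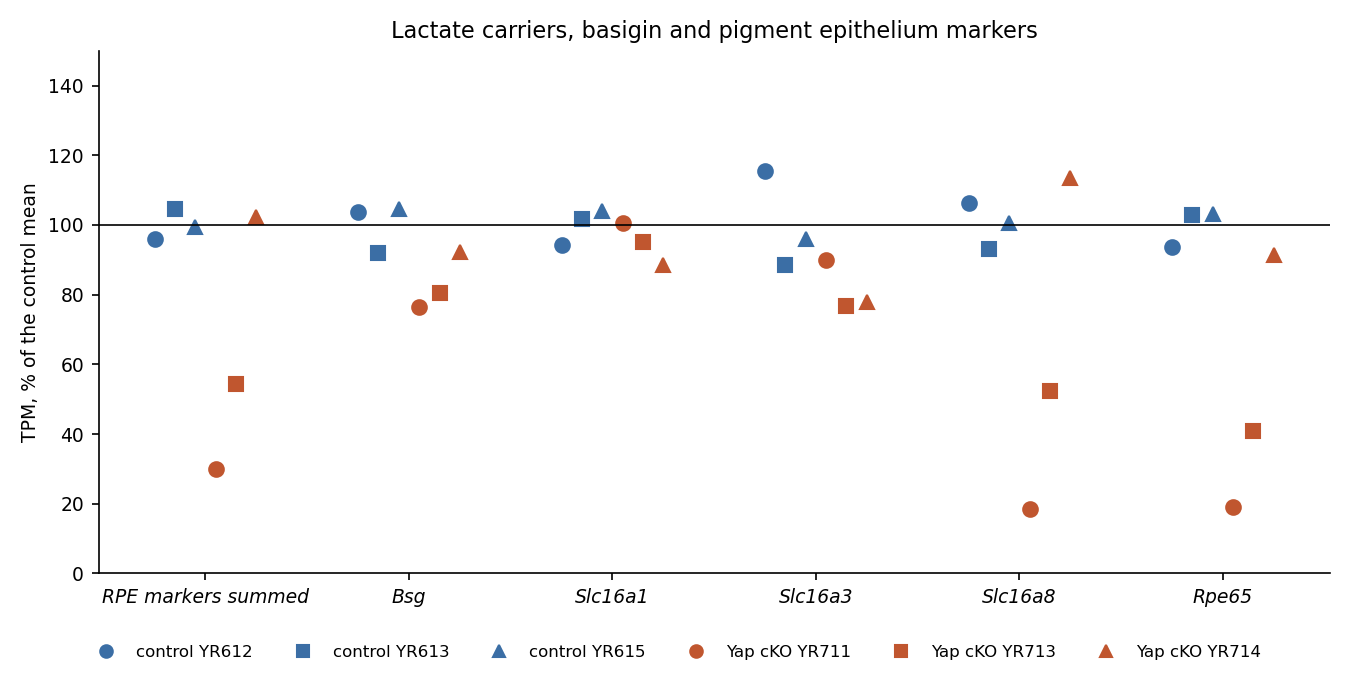
Level of the lactate carriers, *Bsg* and RPE markers in each retina as a percentage of the control mean of TPM, with control animals in blue and Yap cKO animals in orange. The RPE sum and *Slc16a8* spread widely within the Yap cKO group, from 30.0% to 102% and from 18.4% to 114% of the control mean, whereas *Bsg* lies between 76.5% and 92.2% in that group.

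At an unadjusted p under 0.05 in the quasi-likelihood test of edgeR, 6 of the 10 genes passed, against 21.4% of all genes tested. Of these, 5 were lower (*Hk2*, *Pkm*, *Ldha*, *Slc16a3* and *Bsg*), against 9.42% of all genes, and *Pfkfb3* was higher. At an adjusted p of at most 0.05, the count was 0 of 10 with all 6 retinas (1.49% of all genes). It was 4 without YR613 (*Pkm*, *Ldha*, *Slc16a3* and *Bsg*, all lower), where 8.84% of all genes passed and 2.74% passed as lower. Without YR714 it was 1 (*Bsg*, lower), where 5.89% of all genes passed and 2.75% passed as lower. Without both it was 6 (*Pkm*, *Ldha*, *Ldhb*, *Slc16a3* and *Bsg* lower, *Pfkfb3* higher), where 26.3% of all genes passed and 11.8% passed as lower. These fits kept only 5 or 4 retinas, and the share of all genes that passed grew as well. Without both, the controls kept had a rho with length of -0.413 and -0.405, and the *Yap* cKO retinas kept 0.396 and 0.385. Length trend and genotype cannot be told apart in that fit. With any of the other 4 retinas left out the count was 0. Without a filter on low counts it was 4 (*Hk2*, *Pkm*, *Slc16a3* and *Bsg*), against 6.19% of 30129 genes, and *Hk2* then met all the criteria, as 1.22% of these genes did. In that fit the SE was nearly the same for all 10 genes, from 0.0959 (*Pkm*) to 0.103 (*Pfkfb3*). Its p-values therefore hardly reflect how much each gene varied between animals.

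**Figure D3:**
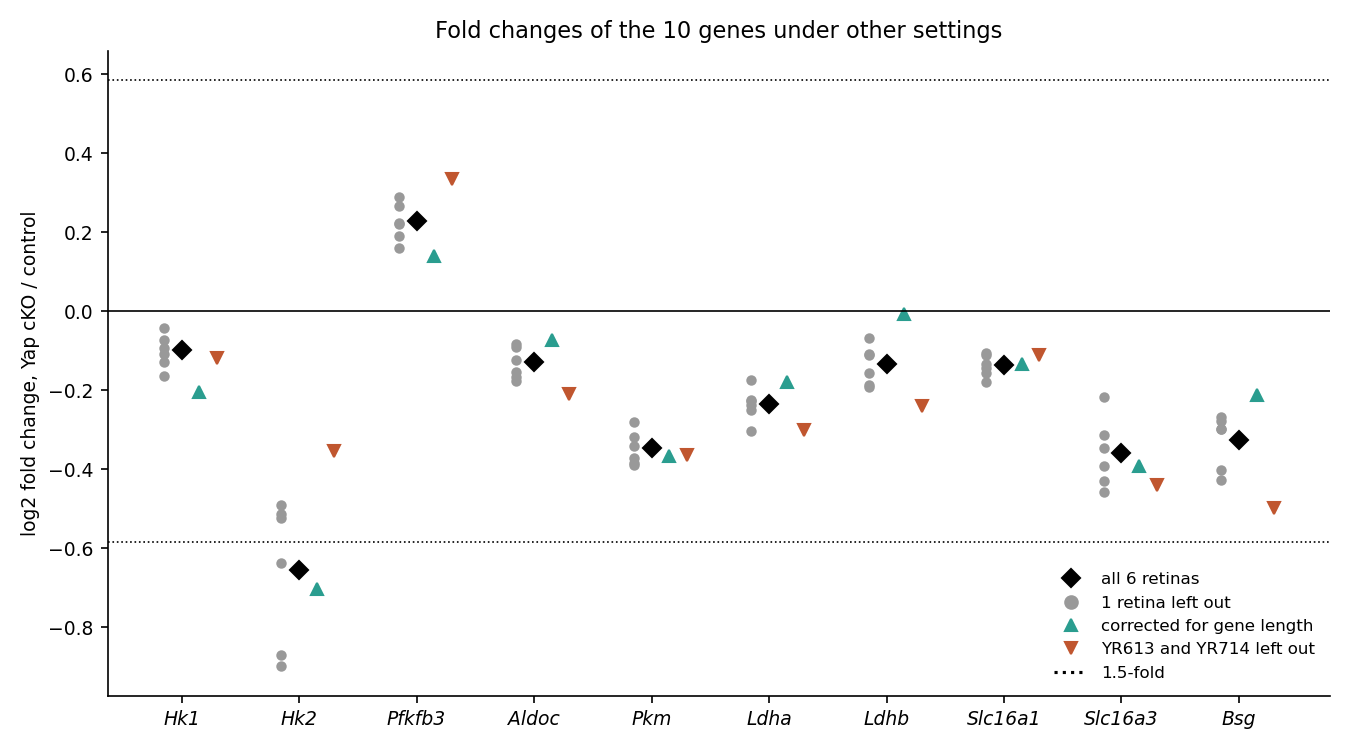
Log2 fold change of each of the 10 genes with all 6 retinas (black), with each retina left out in turn (grey), with counts corrected for gene length (green) and without YR613 and YR714 (orange). Dotted lines mark 1.5-fold; the sign of every gene was the same in all of these fits, and only *Hk2* passed the line, with all 6 retinas, with the length correction and in some of the fits with 1 retina left out.

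Among the remaining enzymes of glycolysis, negative values were also the more frequent. Of 28 listed, 22 were tested, of which 16 had negative and 6 positive log2 fold changes, with a median of -0.15, and none was called. *Pfkl*, the liver-type phosphofructokinase, had 322, 283 and 298 TPM in controls against 247, 219 and 230 TPM in *Yap* cKO retinas. The groups did not overlap, and the log2 fold change was -0.44 (SE 0.089) with an adjusted p of 0.0505 by the quasi-likelihood test of edgeR, which just missed the limit and was 0.0215 with counts corrected for length. The muscle-type *Pfkm* had a log2 fold change of -0.02. *Pfkfb2*, a bifunctional kinase of the same family as *Pfkfb3*, had 42.0, 61.4 and 42.2 TPM in controls against 62.0, 79.8 and 61.9 TPM in *Yap* cKO retinas. Its groups were apart by a narrow gap between control YR613 and YR714, with a log2 fold change of 0.43 (adjusted p = 0.152). In all, 7 of the 22 enzymes were lower and 1 was higher without overlap between the groups, where 9.04% of all genes tested were lower and 15.2% higher in this way.

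The following genes were singled out after their values were seen. *Aldoa*, the main aldolase here, had 4528, 4130 and 4300 TPM in controls against 3707, 3336 and 3488 TPM in *Yap* cKO retinas (log2 fold change -0.36, adjusted p = 0.0741 by the quasi-likelihood test of edgeR). *Aldoc* was therefore 17.4% ± 0.327 of *Aldoc* plus *Aldoa* transcripts in control and 19.8% ± 0.415 in *Yap* cKO retinas (SD, n = 3 each), with no overlap. *Eno1*, the widespread enolase, had 1096, 975 and 1028 TPM in controls against 848, 775 and 803 TPM in *Yap* cKO retinas (log2 fold change -0.41, adjusted p = 0.0525), whereas the neuronal *Eno2* had a log2 fold change of 0.01. Like *Pfkl*, *Eno1* passed 0.05 in every other fit to all 6 retinas except that with median-ratio size factors, and stayed under 1.5-fold. With 1 retina left out it passed only without YR613 (adjusted p = 0.0155) and without YR714 (0.0469), by the quasi-likelihood test of edgeR. The share of *Eno1* in *Eno1* plus *Eno2* was 61.2% ± 1.55 in control and 54.1% ± 0.701 in *Yap* cKO retinas. The share of *Pfkl* in *Pfkl* plus *Pfkm* was 51.2% ± 2.58 and 44.1% ± 0.459. The glucose transporter gene *Slc2a1* (GLUT1, of glia, photoreceptors and RPE) had 331, 303 and 294 TPM in controls against 249, 261 and 248 TPM in *Yap* cKO retinas (log2 fold change -0.35, adjusted p = 0.0741). *Slc2a3* (GLUT3, of neurons) had 56.2, 64.5 and 66.2 TPM in controls against 85.5, 81.7 and 73.8 TPM in *Yap* cKO retinas (log2 fold change 0.31, adjusted p = 0.0914). In each of these pairs the shares of the 2 groups did not overlap, as a description of pairs chosen for it, with no test.

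**Figure D4:**
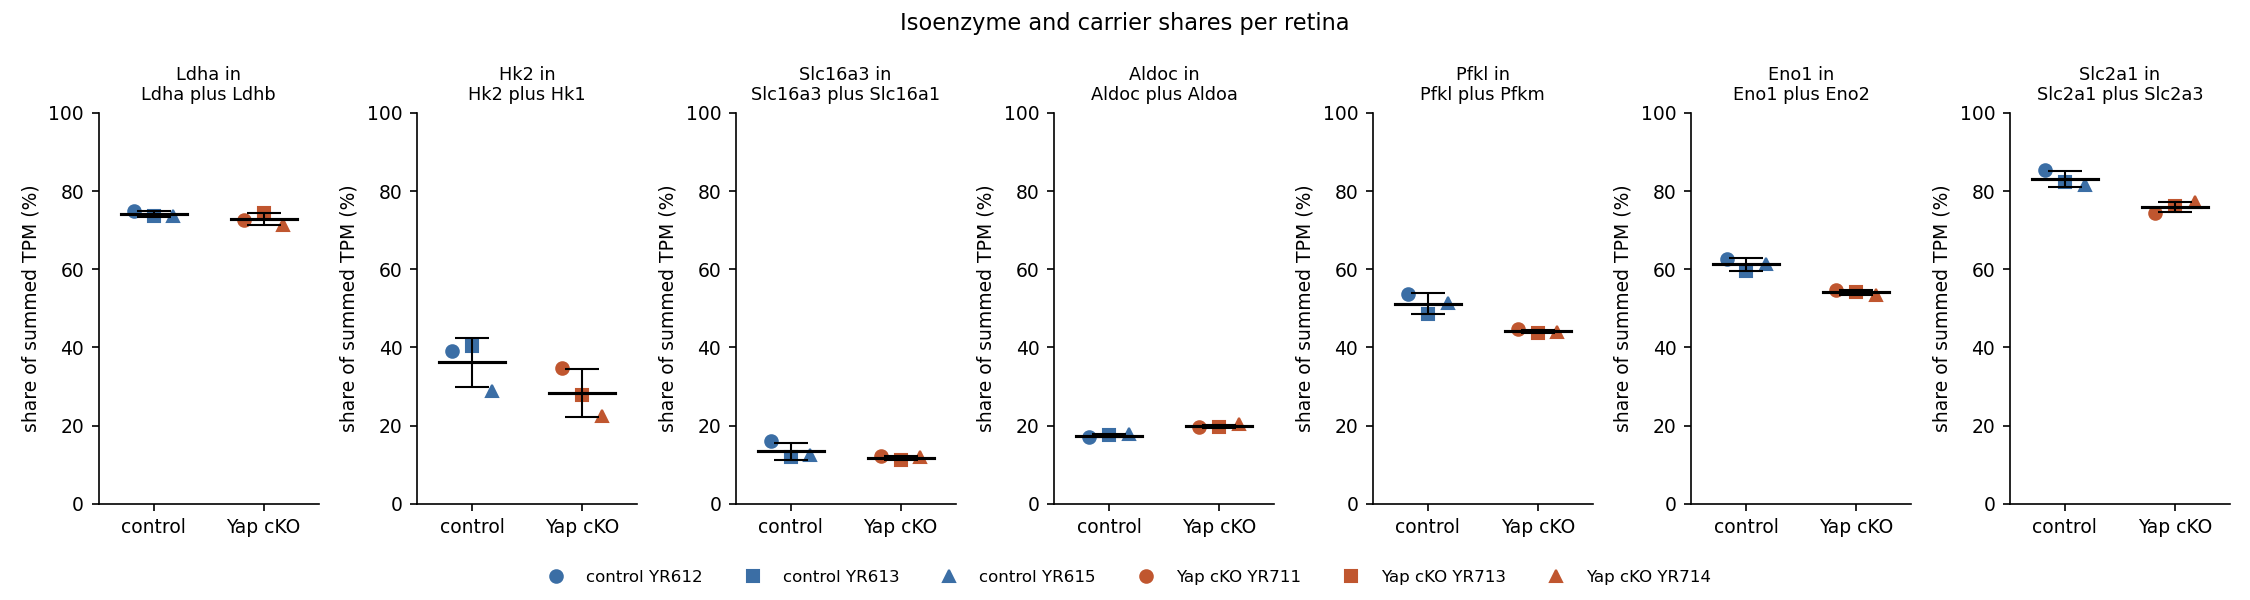
Share of one transcript in an isoenzyme or carrier pair, in percent of the summed TPM, in each retina. Horizontal lines are group means and error bars are 1 SD (n = 3 per group). The first 3 pairs hold only genes of the set and overlap between the groups; the last 4 were chosen after their values were seen and do not overlap.

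**Figure D5:**
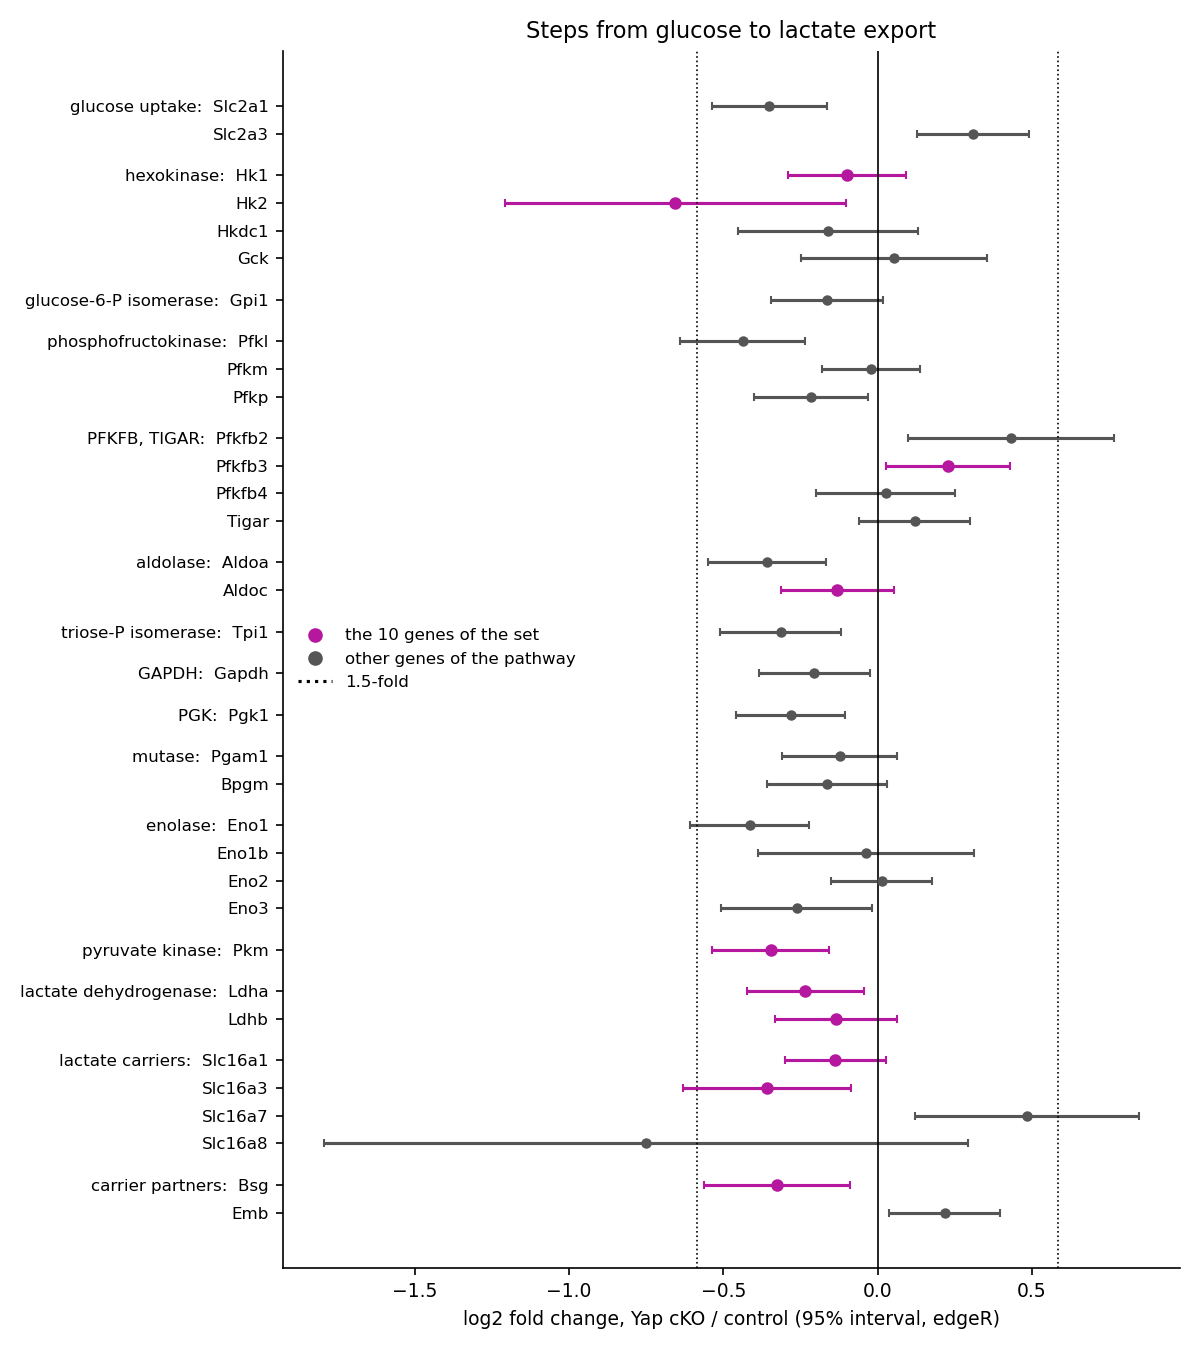
Log2 fold change with its 95% interval for the genes of each step from glucose uptake to lactate export, in pathway order. The 10 genes of the set are in purple and other genes in grey, with 1.5-fold as dotted lines; *Hk2* and *Slc16a3* are the 2 purple intervals that cross a dotted line, and no gene shown was called.

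The other branches of glucose use were listed as well. Together with the enzymes above, 109 of 122 listed genes were tested, of which 64 had negative and 45 positive log2 fold changes, with a median of -0.05. The split was 60 and 49 with a median of -0.01 when counts were corrected for length, and 72 and 37 with a median of -0.10 with upper-quartile factors. Upper-quartile factors also shifted all 16575 genes tested, of which 9456 were then negative, with a median of -0.04. With the length correction 8315 of them were negative, with a median of -0.00069. In the main fit to all 6 retinas, none of the 109 was called or had an adjusted p of at most 0.05 by the quasi-likelihood test of edgeR. Among 10 transport partners, 5 were higher and 5 lower. *Slc16a7*, the MCT2 carrier of neurons with a high affinity for lactate, had 2.84, 4.42 and 3.23 TPM in controls against 5.81, 5.20 and 4.24 TPM in *Yap* cKO retinas (log2 fold change 0.48, adjusted p = 0.145), with an overlap of YR613 and YR714. The 15 genes of pyruvate entry into mitochondria divided into 8 higher and 7 lower, and ranged from *Mpc2*, a subunit of the mitochondrial pyruvate carrier (-0.19), to *Pdpr*, a regulator of pyruvate dehydrogenase phosphatase (0.61, adjusted p = 0.154). *Pdpr* had 11.8, 20.8 and 11.7 TPM in controls against 26.9, 25.4 and 18.2 TPM in *Yap* cKO retinas. The 10 genes of the cytosolic NADH shuttles divided 5 and 5, from *Mdh1*, the cytosolic malate dehydrogenase (-0.24), to *Gpd2*, the mitochondrial glycerol-3-phosphate dehydrogenase (0.25). Of 15 glycogen genes, 7 were higher and 8 lower, from *Phkg2* (-0.15) to *Phka1* (0.24), both subunits of phosphorylase kinase. Of 8 genes of the pentose phosphate pathway, 3 were higher and 5 lower, from *Pgls* (-0.36) to *G6pdx* (0.08).

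The 17 hypoxia factors and regulators of glycolysis genes divided into 9 higher and 8 lower, from *Egln2*, an oxygen-sensing prolyl hydroxylase (log2 fold change -0.32), to *Prkaa2*, a catalytic subunit of AMP-activated kinase (0.38, adjusted p = 0.171 by the quasi-likelihood test of edgeR). Of 12 genes known to be induced by hypoxia outside glycolysis, 2 were higher and 10 lower, with a median of -0.10. Those with at least 5 TPM ranged from *Ankrd37* (-0.25, adjusted p = 0.203) to *P4ha2*, a collagen prolyl hydroxylase (0.12).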

How the data were processed

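RNA-seq gene counts of 6 retinas were used. Reads from both ends of stranded libraries were mapped by the authors with STAR 2.7.3a (GRCm38). They obtained a count per gene over its exons from featureCounts 1.6.2 (strand setting 2, annotation release 98), and the deposited counts are raw; the same table gives exonic length, from which TPM was computed. Groups and treatment came from the labels, the age from the methods of the study. The 10 genes and all lists were chosen with earlier results of these data known.

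Genes were filtered with filterByExpr, normalized by TMM and tested with edgeR 4.0.16 (R 4.3.3) by the quasi-likelihood test, with Benjamini-Hochberg adjustment over 16575 genes and no covariate. Differential expression required an adjusted p of at most 0.05, 1.5-fold and 5 TPM in 1 group. Genes were named if they belonged to the 10, had the largest log2 fold change in each direction of a list at 5 TPM or more, resembled *Hk2* or *Pkm* most (3 each), or were *Yap1*; *Aldoa*, *Eno1*, *Eno2*, *Pfkm*, *Slc2a1* and *Slc2a3* were added after their values were seen. Where *Aldoa* had 2 identifiers, the one with more counts was used; *Cpamd8*, listed as a marker, was not matched. The common dispersion was 0.0126, and counting error enters through this model. On simulated data with 200 changed genes the test called 200 of them and 4 others among 16540 tested. A call requires 1.5-fold, so the detection of smaller differences was not tested there. Detection was also not tested separately for genes as variable between animals as *Hk2*, or under the trend with gene length seen in these retinas. Alternatives were other size factors, DESeq2 1.42.0, limma 3.58.1 (voom), the likelihood ratio test, other filters and criteria, a loess correction for length (span 0.3) and each retina left out. Promoter sequences came from RefSeq (GRCm38.p6).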

Additional observations from a re-analysis of the deposited data

How the results depend on the processing

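The signs of the 10 genes were the same under every alternative run, and 159 of their 160 alternative values stayed on the same side of the criteria. The exception was *Hk2*, which met all criteria without a filter on low counts, the only 1 of the 10 called there. Its log2 fold change was -0.66, with adjusted p = 3.57e-09 by the quasi-likelihood test of edgeR over 30129 genes. The SE of *Hk2* was 0.097 in that fit against 0.25 with the filter, although *Hk2* varied most between animals. This p-value therefore hardly reflects the spread of *Hk2* between animals. The cause was not tested. Over the 33 genes named by rule, 507 of 528 values kept their call, 16 gained and 5 lost it. The count of the 10 genes at an adjusted p of at most 0.05, an outcome added after seeing the data, was 0 with all retinas, 1 with DESeq2, 1 with the likelihood ratio test, 1 with the length correction, 4 without a filter on low counts, 6 without YR613 and YR714, and 0 to 4 with each retina left out. The count of all genes called, 132, became 263 with DESeq2, 291 with the likelihood ratio test, 369 without a filter, 1049 without YR613 and YR714, 247 with the adjusted p alone, 222 at an adjusted p of 0.1, and 38 to 516 with each retina left out (40 without YR612, 516 without YR613, 38 without YR615, 104 without YR711, 68 without YR713 and 448 without YR714). Of the other pathway genes, 0 of 109 were called in the main fit, against 0.796% of all genes. Without a filter it was 2 of 121 (*Pdpr* and *Slc16a8*), against 1.22% of all genes. Without YR613 and YR714 it was 7 of 109, against 6.27% of all genes. With each retina left out the count was 0 to 3. The 3 were *Pfkfb2*, *Slc16a7* and *Pdpr* without YR613, against 3.06% of all genes. Without YR714 they were *Pgls*, *Pdpr* and *Slc16a8*, against 2.66% of all genes. At an unadjusted p under 0.05 in the quasi-likelihood test of edgeR, 25 of the 109 passed, against 21.4% of all genes tested. The share of *Slc2a1* in *Slc2a1* plus *Slc2a3* differed (*Yap* cKO minus control) by -7.29 percentage points with TPM and by -10.2 with counts instead. With 3 retinas a group and these depths, the 95% intervals allowed changes beyond 1.5-fold only for *Hk2* and *Slc16a3* among the 10. No paired analysis was possible because the groups share no replicate numbers.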
